A study of Mus musculus with 6 samples.

Results

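Tuft cell genes are the subject here: 36 genes known from tuft cells, matched on the gene symbol among 55331 genes of the deposited table. They were chosen by name, with earlier results of these data known. All 36 were found, and the authors tested 34 of them. They were measured by sequencing of polyadenylated RNA from crypt cells of mouse small intestine, with 3 WT and 3 PTBP1_KO samples. All mice were C57BL/6 and 60 days old. WT mice had the genotype Ptbp1f/f, with floxed Ptbp1 alleles and no Cre. PTBP1_KO mice had the genotype Ptbp1f/f;Vil-creER+/-, in which a tamoxifen-inducible Cre is driven by villin regulatory sequence, active in intestinal epithelium. Both groups were given tamoxifen at 100 mg/kg on 2 days and were sampled 20 h after the last injection, so a group with Cre but without floxed alleles was not part of the comparison. The whole crypt fraction was sequenced without a sort for tuft cells.

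Tuft cells are rare chemosensory cells of the intestinal epithelium. The transcription factor POU2F3 specifies them, and they sense luminal compounds such as succinate through receptors, G proteins, phospholipase C and the cation channel TRPM5, the cascade also used by taste cells. They secrete interleukin 25, cysteinyl leukotrienes, prostaglandins and acetylcholine, and through interleukin 25 they activate type 2 innate lymphoid cells, whose interleukin 13 in turn drives more tuft cell differentiation. Many of their signalling genes are also used by leukocytes.

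The targeted gene, Ptbp1, had 230.0 FPKM in WT crypts and 122.8 FPKM in PTBP1_KO crypts, in FPKM, a level scaled to transcript length in kilobases and to 1000000 fragments. The value covers the whole gene, including parts outside a deletion. All 5 markers of the labelled cell type were present, since Epcam, Cdh1, Vil1, Krt8 and Krt20 had between 227 and 1220 FPKM in WT. The deposited gene table holds 1 FPKM value per group, so no spread between samples can be given for any gene level below, and the order of genes with similar levels is not resolved. The labels number the samples of a group without saying that each came from a separate mouse, so the authors' p-values may measure technical spread alone.

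One library stood apart in the RNA of these genes. The splicing tables give reads for each of 6 libraries, in a first and a second set of 3 whose genotypes the headers do not name. For the 25 tuft cell genes with a skipped exon event, reads were taken at the event with most reads and given per 1000000 reads of the same kind summed over 10244 genes, here RPM. In the first set the 25 genes together had 394 RPM in library 1, 502 in library 2 and 388 in library 3. In the second set they had 861 RPM in library 1, 569 in library 2 and 396 in library 3. Library 1 of the second set was therefore 2.22 times as high as the lowest library, and the next highest library was 1.47 times as high as the lowest. For 24 of the 25 genes this same library was the highest of the 6, and Spib, highest in library 2 of the first set, was the exception. The share of all 10244 genes that were highest in this library was not computed. The 25 genes had 4909 to 10936 reads per library, and all 10244 genes summed to 12451424 to 14997056. Because the gene table holds no value per library, none of the group comparisons below could be repeated without this library, and its part in them was not tested.

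**Figure D1:**
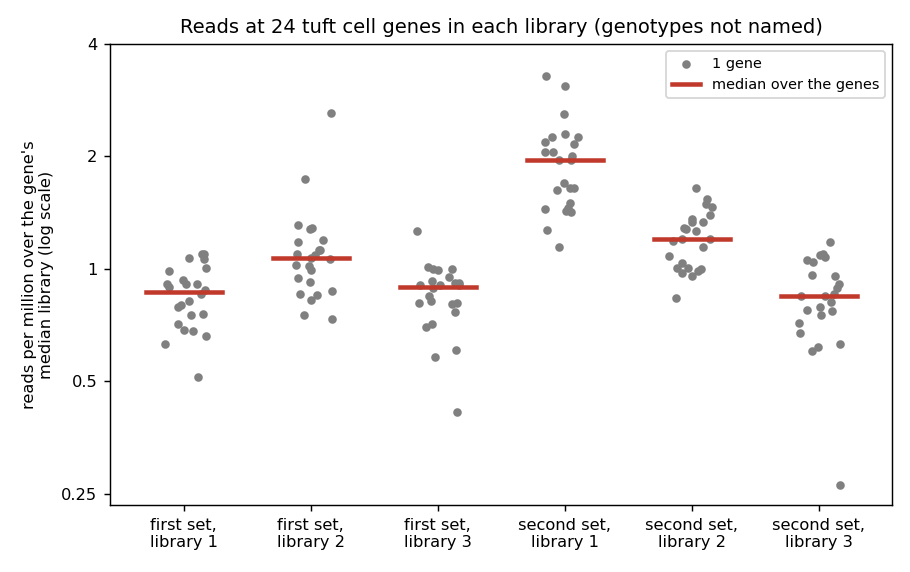
Reads per 1000000 such reads (RPM) at 24 tuft cell genes in each of the 6 libraries, divided by the gene's median over the libraries (log scale), with 1 grey point per gene and a red bar at the median over genes; Chat, with 0 reads in 1 library, is left out. The points of library 1 of the second set lie above the median library for all 24 genes, and the genotype of neither set is named.

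The spread over libraries differed among the genes. Over the 24 genes with reads in every library, the highest library exceeded the lowest by 1.29 to 5.32 times, with a median of 2.55. Sh2d6 had 44.6, 70.3 and 47.1 RPM in libraries 1, 2 and 3 of the first set and 132, 87.4 and 45.3 RPM in those of the second. Siglecf had 11.6, 14.1 and 11.7 RPM in libraries 1, 2 and 3 of the first set and 28.3, 19.9 and 8.70 RPM in those of the second. In both genes library 1 of the second set was highest and its library 3 lay within or below the range of the first set, so the sets overlapped. Alox5 had 9.08, 7.03 and 6.53 RPM in libraries 1, 2 and 3 of the first set and 19.2, 8.17 and 8.91 RPM in those of the second. Matk had 18.4, 20.9 and 11.4 RPM in libraries 1, 2 and 3 of the first set and 45.1, 26.3 and 12.4 RPM in those of the second. Alox5 and Matk were highest in the same library, and in each the sets overlapped. Pou2f3 had 2.25, 3.14 and 2.07 RPM in libraries 1, 2 and 3 of the first set and 4.96, 4.08 and 3.68 RPM in those of the second. Trpm5 had 27.5, 34.6 and 25.5 RPM in libraries 1, 2 and 3 of the first set and 73.3, 49.8 and 38.7 RPM in those of the second. Dclk1 had 7.15, 6.58 and 7.07 RPM in libraries 1, 2 and 3 of the first set and 12.6, 10.4 and 10.3 RPM in those of the second. For Pou2f3, Trpm5 and Dclk1 all 3 libraries of the second set were above all 3 of the first, with library 1 of the second set again highest. The share of all genes separated in this way was not computed, so the separation is not read as a trait of these 3 genes. For Pou2f3 and Trpm5 the gap between the sets was smaller than the range within the second set, and for Dclk1 it was larger. Skap2 was the flattest, with 35.9 to 46.3 RPM.

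Levels of tuft cell genes, chosen with earlier results of these data known, were lower in PTBP1_KO for nearly all members. Of the 34 tested, 33 had a lower FPKM in PTBP1_KO crypts than in WT, whereas 45.3% of all tested genes were lower. The remaining 1 was higher, whereas 54.7% of all tested genes were. The sum over the 36 genes was 341 FPKM in WT crypts and 250 FPKM in PTBP1_KO crypts (249.5 before rounding). At q below 0.05 by the authors' deposited table, 4 members fell and 0 rose, with 0.149% of all tested genes called lower, 0.388% higher and 0.537% in either direction. An unadjusted p below 0.05 by the authors' deposited table was listed for 19 members, all lower, against 1.66% of all tested genes, and for 0 higher members, against 2.69%. At most 75% of the WT level was listed for 25 of the 34 members, against 7.08% of all tested genes. Of the 30 tested members that reached 1 FPKM in either group it was 22, against 3.57% of such genes. The median log2((PTBP1_KO + 1)/(WT + 1)) was -0.42 over the tested members and 0.02 over all tested genes. Reads in 9 members could in part belong to an overlapping coding gene (Avil, Chat, Dclk1, Gng13, Hmx2, Il17rb, Lrmp, Tas1r3 and Trpm5), since the strand setting of the count is not given in the sources used here. In bulk RNA, fewer tuft cells and less RNA of these genes per tuft cell cannot be told apart.

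**Figure D2:**
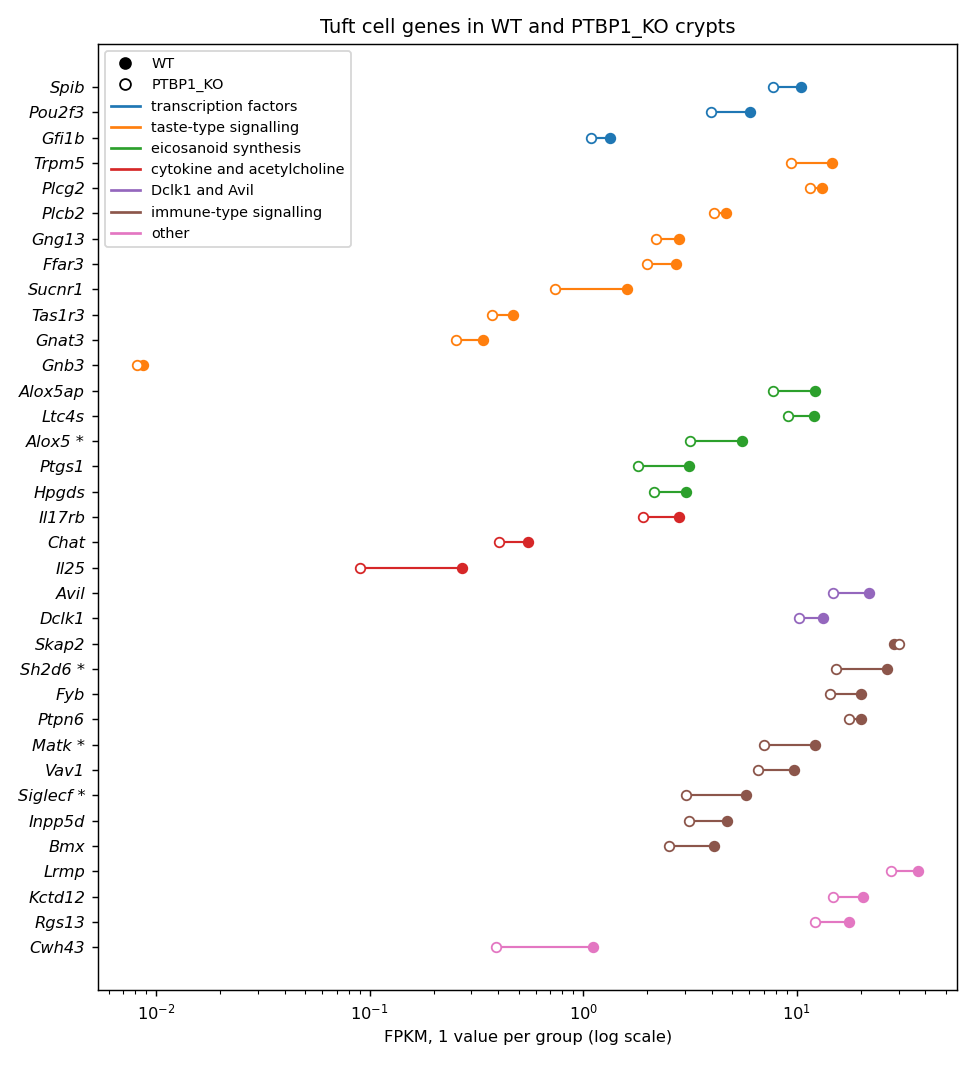
FPKM in WT (filled) and PTBP1_KO (open) of the 35 tuft cell genes with a value above 0, on a log axis, coloured by role, with an asterisk for q below 0.05 by the authors' deposited table. Each point is 1 value per group without error, and Skap2 is the member whose open point lies to the right of the filled one.

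The 4 genes that fell were Siglecf, Sh2d6, Alox5 and Matk. Siglecf (ENSMUSG00000039013.16, chromosome 7, 43351341 to 43359531), a sialic acid-binding surface receptor also carried by eosinophils, had 5.78 FPKM in WT crypts and 3.03 FPKM in PTBP1_KO crypts, or 52.4% of the WT level. By the authors' deposited table, its log2 fold change was -0.93 with p = 5e-05 and q = 0.0125. Sh2d6 (ENSMUSG00000052631.15, chromosome 6, 72513641 to 72521707), which encodes an SH2 domain adaptor, had 26.5 FPKM in WT crypts and 15.2 FPKM in PTBP1_KO crypts, or 57.4%. The authors' deposited table gave it a log2 fold change of -0.80 with p = 5e-05 and q = 0.0125. Both p-values are the smallest that the authors' deposited table holds, a value shared by 62 tested genes. Alox5 (ENSMUSG00000025701.12, chromosome 6, 116410077 to 116461178), the lipoxygenase that starts leukotriene synthesis, had 5.55 FPKM in WT crypts and 3.15 FPKM in PTBP1_KO crypts, or 56.7%. By the authors' deposited table, its log2 fold change was -0.82 with q = 0.0227. Matk (ENSMUSG00000004933.17, chromosome 10, 81252935 to 81263365), a kinase that restrains Src family kinases, had 12.2 FPKM in WT crypts and 7.06 FPKM in PTBP1_KO crypts, or 58.0%. The authors' deposited table listed a log2 fold change of -0.79 with q = 0.0305. None of the 4 overlaps another annotated gene in GENCODE M21. For each of the 4, library 1 of the second set had the most reads, as for 24 of the 25 members with such reads.

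**Figure D3:**
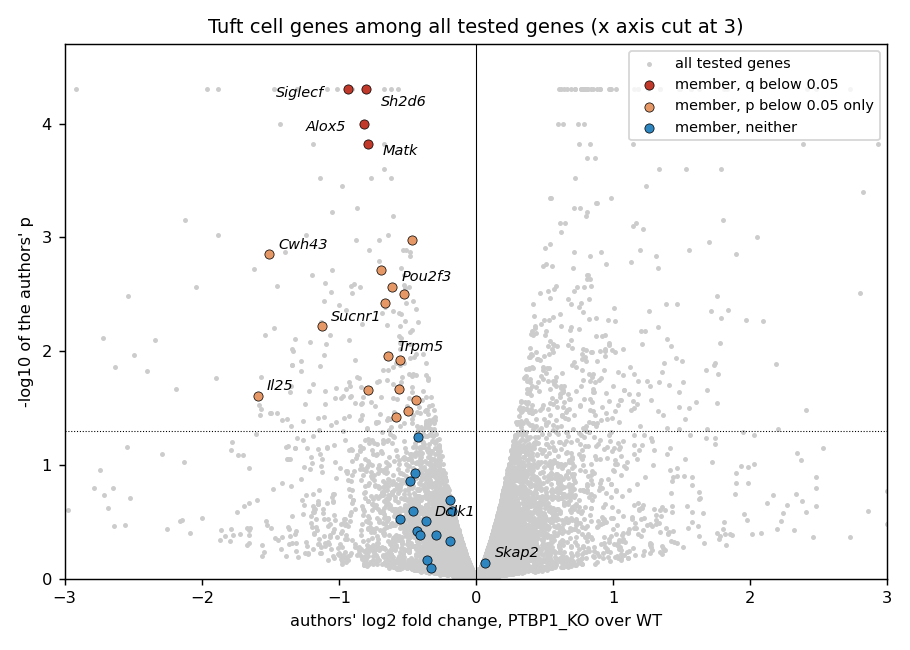
The authors' log2 fold change of PTBP1_KO over WT against -log10 of the authors' p for all tested genes (grey) and the 34 tested tuft cell genes (coloured by call), with the x axis cut at 3 and a dotted line at p = 0.05. All members but Skap2 lie left of 0, and the 4 with q below 0.05 lie between -0.93 and -0.79.

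Sequence just before the start of these 4 genes is shown because they are the members that passed the threshold, and it was searched for 2 sites linked to tuft cell transcription factors. The search covered 300-base windows from 250 bases before to 50 bases after each start, taken from RefSeq on GRCm38.p6, and 31 of the 36 members matched by symbol with 35 windows. Alox5ap, Gnb3, Il25, Lrmp and Pou2f3 did not match. The letters were ATGCAAAT, the octamer bound by POU factors, and GAGGAAGT, a PU box of the kind bound by SPIB, each on both strands, and the 2 do not overlap each other. The octamer was found in 3 of the 35 windows of members and in 1.74% of 32851 windows in all. The PU box was found in 4 of the 35 windows and in 3.20% of all. A match is a run of letters and no measured site. In the 4 genes that fell neither run of letters was found in these windows, and the 100 bases before each start are given 5′ to 3′ on the gene's strand. RefSeq places the start of Sh2d6 inside the gene as GENCODE M21 draws it.

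Alox5 (chr6:116461179-116461278, minus strand): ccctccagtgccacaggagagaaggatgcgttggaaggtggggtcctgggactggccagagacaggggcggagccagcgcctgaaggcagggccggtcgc

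Siglecf (chr7:43351241-43351340, plus strand): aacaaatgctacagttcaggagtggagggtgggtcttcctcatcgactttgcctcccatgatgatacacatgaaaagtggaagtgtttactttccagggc

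Sh2d6 (chr6:72520037-72520136, minus strand): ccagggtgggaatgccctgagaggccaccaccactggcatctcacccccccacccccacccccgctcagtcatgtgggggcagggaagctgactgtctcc

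Matk (chr10:81252835-81252934, plus strand): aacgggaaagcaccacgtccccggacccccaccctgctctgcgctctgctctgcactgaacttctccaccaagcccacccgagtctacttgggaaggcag

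The octamer stood before the start of Sucnr1, Hpgds and Kctd12, and Hpgds held both. RefSeq places the start of Hpgds inside the gene as GENCODE M21 draws it (end at 65144908 on the minus strand), so both of its matches lie within that gene model. The 200 bases before each start are printed with the octamer and the PU box in capitals. The PU box alone stood before Inpp5d, Ptgs1 and Vav1.

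Sucnr1 (chr3:60081669-60081868, plus strand): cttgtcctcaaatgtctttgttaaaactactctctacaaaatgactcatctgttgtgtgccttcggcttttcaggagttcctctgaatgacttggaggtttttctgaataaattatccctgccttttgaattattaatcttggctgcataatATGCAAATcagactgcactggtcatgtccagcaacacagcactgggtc

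Hpgds (chr6:65144731-65144930, minus strand): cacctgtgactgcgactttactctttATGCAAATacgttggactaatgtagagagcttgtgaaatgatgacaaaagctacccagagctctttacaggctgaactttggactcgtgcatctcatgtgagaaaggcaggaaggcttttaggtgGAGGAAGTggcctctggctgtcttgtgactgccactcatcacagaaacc

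Kctd12 (chr14:102982638-102982837, minus strand): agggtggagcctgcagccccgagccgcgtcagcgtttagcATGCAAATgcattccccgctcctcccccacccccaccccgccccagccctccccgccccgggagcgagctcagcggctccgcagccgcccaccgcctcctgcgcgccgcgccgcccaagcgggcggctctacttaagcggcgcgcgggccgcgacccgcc

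Among transcription factors, 3 of 4 were tested and all 3 were lower in PTBP1_KO, with 0 called at q below 0.05. Wherever a pair of levels is given from here on, WT comes first. Pou2f3, the factor that specifies tuft cells, had 6.06 FPKM in WT crypts and 3.97 FPKM in PTBP1_KO crypts, with p = 0.0027 and q = 0.244 by the authors' deposited table. Spib, an ETS factor also used by M cells and B cells, had 10.5 FPKM and 7.74 FPKM, with p = 0.0271 and q = 0.864 by the authors' deposited table. Gfi1b, a repressor shared with blood cell lineages, had 1.34 FPKM in WT crypts and 1.09 FPKM in PTBP1_KO crypts, with p = 0.414 by the authors' deposited table. Hmx2, a homeobox factor, was listed at 0 in both groups with the status HIDATA, which marks a locus the authors' run did not quantify, so its level is unknown.

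Of the 9 members in chemosensory signalling, 8 were tested and all 8 were lower, again with 0 called. The channel gene Trpm5 had the highest level of the group, with 14.7 FPKM in WT crypts and 9.42 FPKM in PTBP1_KO crypts. For Trpm5 the authors' deposited table listed a log2 fold change of -0.64 with p = 0.0111 and q = 0.555. Sucnr1, the succinate receptor, had 1.61 FPKM in WT crypts and 0.740 FPKM in PTBP1_KO crypts, or 46.0% of the WT level. Its p by the authors' deposited table was 0.006 with q = 0.40. The other tested members of the cascade had an unadjusted p above 0.05 by the authors' deposited table. Among them were the phospholipases Plcg2, with 13.2 FPKM and 11.6 FPKM, and Plcb2, with 4.68 FPKM and 4.10 FPKM, both at 87.6% to 87.7% of WT. The G protein subunits Gng13 and Gnat3, the sweet and umami receptor subunit Tas1r3 and the short-chain fatty acid receptor Ffar3 stood at 73.3% to 79.8% of WT. Gnat3 and Tas1r3 were below 1 FPKM in both groups. Gnb3 was not tested and was listed at 0.00873 FPKM in WT crypts and 0.00813 FPKM in PTBP1_KO crypts, the lowest level above 0.

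The 5 enzymes and carriers of eicosanoid synthesis were all tested and all lower, with a median of 63.1% of the WT level. Besides Alox5, its membrane partner Alox5ap had 12.2 FPKM in WT crypts and 7.72 FPKM in PTBP1_KO crypts, with p = 0.0038 and q = 0.302 by the authors' deposited table. Ptgs1, the constitutive cyclooxygenase, had 3.14 FPKM and 1.82 FPKM, with p = 0.0218 and q = 0.769 by the authors' deposited table. Hpgds, which makes prostaglandin D from its precursor, had 3.03 FPKM and 2.15 FPKM, with p = 0.0339 and q = 0.953 by the authors' deposited table. Ltc4s, leukotriene C4 synthase, had 12.1 FPKM and 9.12 FPKM, with p = 0.409 by the authors' deposited table. Of this group only Alox5 passed the threshold.

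The cytokine and the acetylcholine enzyme were scarce, both below 1 FPKM. Il25, the cytokine by which tuft cells signal to innate lymphoid cells, had 0.272 FPKM in WT crypts and 0.0903 FPKM in PTBP1_KO crypts, with p = 0.0247 and q = 0.821 by the authors' deposited table. Il17rb, a subunit of the receptor for interleukin 25, had 2.81 FPKM and 1.92 FPKM, and Chat, the acetylcholine-synthesising enzyme, had 0.554 FPKM and 0.403 FPKM. Their p-values by the authors' deposited table were 0.298 and 0.251. Both structural genes were lower as well. Avil, an actin-binding protein of the villin family, had 21.8 FPKM in WT crypts and 14.8 FPKM in PTBP1_KO crypts, with p = 0.0213 and q = 0.766 by the authors' deposited table. Dclk1, the microtubule-associated kinase most used to mark tuft cells, had 13.2 FPKM and 10.2 FPKM, or 77.6% of WT, with p = 0.310 by the authors' deposited table.

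Of the 9 members in immune-type signalling, all tested, 8 were lower and 3 fell at q below 0.05 (Siglecf, Sh2d6 and Matk). Bmx, a Tec family kinase, had 4.09 FPKM in WT crypts and 2.53 FPKM in PTBP1_KO crypts, with p = 0.00195 and q = 0.197 by the authors' deposited table. Vav1, a guanine nucleotide exchange factor, had 9.73 FPKM and 6.62 FPKM, with p = 0.0119 and q = 0.575 by the authors' deposited table. Inpp5d, an inositol phosphatase, had 4.72 FPKM and 3.15 FPKM, with p = 0.0381 and q = 0.9998 by the authors' deposited table. The adaptor Fyb stood at 71.5% and the phosphatase Ptpn6 at 88.5% of WT, both with an unadjusted p above 0.05 by the authors' deposited table. Skap2, an adaptor with broad expression, was the only tested member not lower, with 28.6 FPKM in WT crypts and 30.0 FPKM in PTBP1_KO crypts and p = 0.722 by the authors' deposited table. It was also the gene whose reads varied least over the libraries.

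The remaining 4 genes included the most abundant member. Lrmp, a membrane protein of the endoplasmic reticulum, had 37.1 FPKM in WT crypts and 27.7 FPKM in PTBP1_KO crypts, with p = 0.0568 by the authors' deposited table. Kctd12, an auxiliary subunit of GABA-B receptors, had 20.5 FPKM and 14.8 FPKM, with p = 0.00105 and q = 0.134 by the authors' deposited table. Rgs13, a regulator of G protein signalling, had 17.5 FPKM and 12.1 FPKM, with p = 0.00315 and q = 0.268 by the authors' deposited table. Cwh43, a gene linked to lipid remodelling of membrane anchors, had 1.11 FPKM and 0.391 FPKM, or 35.2% of WT, with p = 0.0014 and q = 0.158 by the authors' deposited table. By level, the 19 members of at least 5 FPKM had a median of 69.4% of WT, the 11 members from 1 to 5 FPKM 68.1% and the 4 tested members under 1 FPKM 73.5%. All 4 called genes had at least 5 FPKM in the higher group.

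Leukocytes express 21 of the 36 members too, by a list drawn up from general knowledge, so the 15 others were described apart. Of the 21 shared genes, 20 were lower with a median of 69.4% of WT, and 3 were called. Of the 15 others, all 13 that were tested were lower with a median of 72.4% of WT, and Sh2d6 was called. Markers of leukocytes were higher in PTBP1_KO. The 7 markers of T cells and intraepithelial lymphocytes summed to 114 FPKM in WT crypts and 210 FPKM in PTBP1_KO crypts (209.5 before rounding), all 7 were higher, and 4 rose at q below 0.05 by the authors' deposited table, against 0.388% of all tested genes called higher. The 4 were Gzma and Gzmb, granzymes of cytotoxic cells, Cd7, and Cd8a, a T cell co-receptor, at 175% to 196% of WT. Of the 3 general leukocyte markers (Ptprc, Cd52 and Coro1a) all were higher and none was called, with sums of 29.1 FPKM and 39.0 FPKM. Of the 7 mast cell markers 4 were tested, 3 of them higher and none called, and the sums were 18.3 FPKM and 31.6 FPKM. The 6 markers of B and plasma cells summed to 19.7 FPKM and 26.2 FPKM and the 6 of macrophages and dendritic cells to 4.49 FPKM and 5.05 FPKM, with none called. Eosinophil markers, which bear on Siglecf, were low, with a sum over 6 genes of 0.297 FPKM in WT crypts and 0.308 FPKM in PTBP1_KO crypts and Ear1 listed at 0 in both. That sum mixes directions. Prg2, the only one tested, was lower, with 0.229 FPKM and 0.185 FPKM and p = 0.663 by the authors' deposited table. Of those not tested, Epx was lower, with 0.0225 FPKM and 0.0025 FPKM. Ear2, with 0.0133 FPKM and 0.0847 FPKM, Ccr3 and Il5ra were higher. The sums of the other 5 leukocyte lists were thus higher in PTBP1_KO, and that of the 21 shared tuft cell genes was lower, 230 FPKM in WT crypts against 175 FPKM. What part leukocyte RNA had in the levels of the shared genes was not tested.

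**Figure D4:**
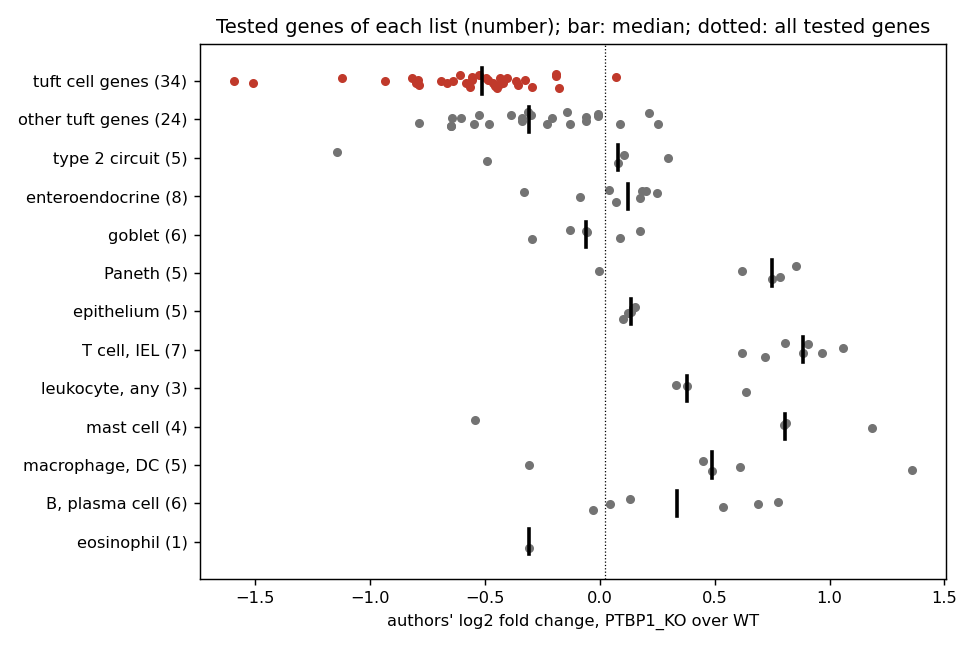
The authors' log2 fold change (PTBP1_KO over WT) of the tested genes of each list, with 1 point per gene, a bar at the median and a dotted line at the median of all tested genes. Tuft cell genes (red) have a median of -0.51, other tuft genes lie mostly left of 0, and T cell markers and 4 of the 5 Paneth markers lie to the right.

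Other genes known from tuft cells gave the same sign in most cases. Of 26 genes in a second list, also chosen with earlier results of these data known, 24 were found and tested. These 24 were measured in the same libraries as the members, so they are no independent support. Of them, 21 were lower, against 45.3% of all tested genes. The median log2((PTBP1_KO + 1)/(WT + 1)) over the 24 was -0.24. An unadjusted p below 0.05 by the authors' deposited table was listed for 7, all lower, against 1.66% of all tested genes. Pik3r5, a regulatory subunit of phosphoinositide 3-kinase, had 7.0 FPKM and 4.86 FPKM, with p = 0.0026 and q = 0.244 by the authors' deposited table. Pygl, a glycogen phosphorylase, had 6.02 FPKM and 4.12 FPKM, with p = 0.0047 and q = 0.343 by the authors' deposited table. Several genes of this list, such as Cd24a at 250.5 FPKM and Krt18 at 240.4 FPKM in WT, are expressed by other epithelial cells as well.

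The type 2 circuit around tuft cells was measured in part. Of 10 genes, 5 were tested, 2 of them lower and 3 higher, and 0 were called. The cytokine Il4 was listed at 0 in both groups, and Il5 and Il13 were at or below 0.0212 FPKM. The epithelial receptor chains Il4ra, with 12.8 FPKM in WT crypts and 15.7 FPKM in PTBP1_KO crypts, and Il13ra1, with 28.8 FPKM and 30.5 FPKM, had an unadjusted p above 0.05 by the authors' deposited table. The alarmin Il33 had 5.74 FPKM and 4.08 FPKM, with p = 0.0158 and q = 0.666 by the authors' deposited table. Tslp had 0.345 FPKM and 0.156 FPKM, with p = 0.0496 and q = 0.9998 by the authors' deposited table.

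Other secretory lineages of the crypt were listed beside the tuft cell genes without a test of the difference. The 8 enteroendocrine markers had a median of 109% of WT and the 6 goblet markers 96.0%, with 0 called in either list. Of 5 Paneth cell markers outside the defensins, 4 were higher with a median over the 5 of 168% of WT. Mmp7, a matrix metalloprotease that processes defensins, and Ang4, an antimicrobial ribonuclease, rose at q below 0.05 by the authors' deposited table. Of all tested genes, 0.388% were called higher. In the reads by library, 4 Paneth markers summed to 14860 RPM (14859.9 before rounding) in library 3 of the first set and to between 3520 (3520.5) and 7422 RPM in the other 5. The part of that library in the group values was not tested.

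No splicing event of a tuft cell gene passed the thresholds. An event counted as changed with the authors' FDR below 0.05, an absolute inclusion level difference of at least 0.1 and 20 or more reads per library on average. The 5 MATS tables held 117 events in 26 of the 36 members, and 102 events in 24 members had enough reads. Of these 102 events 0 were changed, against 1.56% of all events with enough reads. An unadjusted p below 0.05 was listed for 8 of the 102 by the authors' deposited tables, against 10.3% of all such events. The median member event had a mean of 94.8 reads per library, and the median of all events was 203. A difference below 0.1 was listed for 98 of the 102 events. By inclusion over all libraries, 67 of the 102 were above 90%, 25 between 10% and 90% and 10 below 10%.

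**Figure D5:**
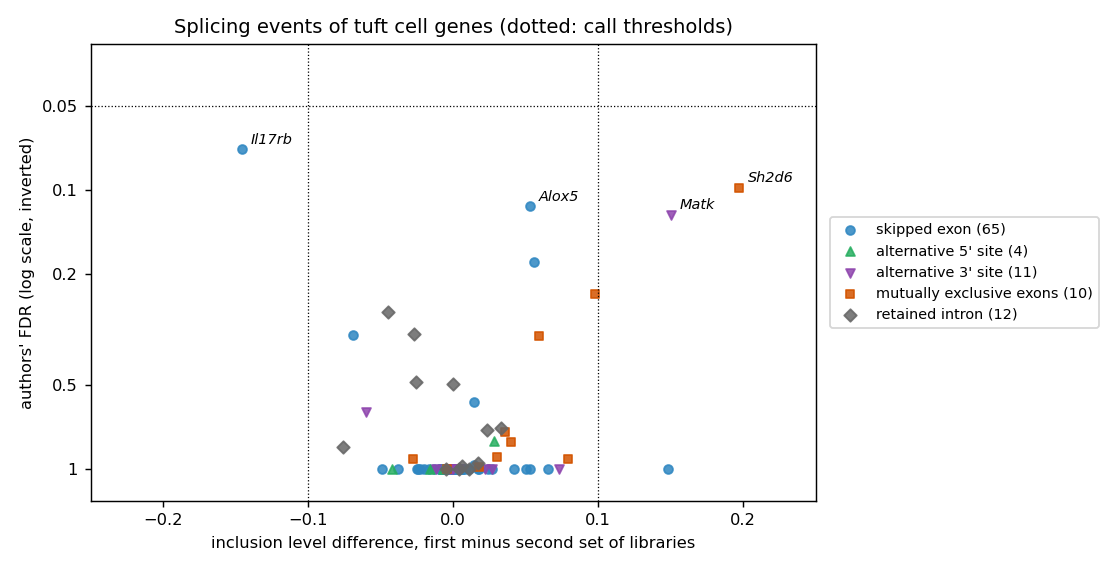
Inclusion level difference (taken as first minus second set of libraries) against the authors' FDR on an inverted log axis for the 102 events of tuft cell genes with a mean of at least 20 reads, by event type, with dotted lines at the call thresholds. No point lies above the dotted FDR line, and the closest is a skipped exon of Il17rb.

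For the markers, the event of smallest p was read. In Pou2f3 it was a skipped exon (chromosome 9, 43176286 to 43176320, minus strand) with 28 to 63 reads per library and an inclusion of 96.3%, with a difference of 0.056 and FDR = 0.182 by the authors' deposited table. In Dclk1 it was an alternative 5' splice site (chromosome 3, 55477805 to 55477937, plus strand) with 78 to 136 reads, a difference of 0.028 and FDR = 0.794 by the authors' deposited table. In Trpm5 it was a pair of mutually exclusive exons (chromosome 7, 143073162 to 143073234 and 143073969 to 143074101, minus strand) with 270 to 633 reads, a difference of -0.028 and FDR = 0.919 by the authors' deposited table.

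The 4 events with a difference of at least 0.1 and enough reads were named after their values were seen. The skipped exon of Il17rb (chromosome 14, 30000742 to 30000880, minus strand) had the smallest FDR of any member event, 0.0713, with a difference of -0.146 by the authors' deposited table and 17 to 44 reads per library. The largest difference was 0.197 for a pair of exons of Sh2d6, with FDR = 0.0982 by the authors' deposited table and 24 to 101 reads per library. An alternative 3' splice site of Matk (chromosome 10, 81259174 or 81259177 to 81259287, plus strand) had 30 to 110 reads, a difference of 0.15 and FDR = 0.123 by the authors' deposited table. A skipped exon of Plcb2 (chromosome 2, 118724388 to 118724456, minus strand) had 14 to 29 reads, a difference of 0.148 and FDR = 1 by the authors' deposited table. The Sh2d6 and Matk events had the most reads in library 1 of the second set, as did the Il17rb and Plcb2 events. That library was also the highest for 24 of the 25 members with reads by library.

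The Sh2d6 pair is shown because it had the largest difference and belongs to a gene that fell. Both exons are coding in GENCODE M21, and the lengths of 25 and 31 bases are read from mm10 transcripts, 5′ to 3′ on the gene's strand. The 31-base exon is the one counted as included, with 56.5% over all libraries. That share is only among reads assigned to one exon or the other in this event. As skipped exons, the 31-base exon was listed at 98.0% and 98.5% inclusion, and the 25-base exon at 89.1% to 99.0% over 3 events.

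Sh2d6 exon of 25 bases (chr6:72516389-72516413): ggagctatggatggtgcgttgaaag

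Sh2d6 exon of 31 bases (chr6:72516542-72516572): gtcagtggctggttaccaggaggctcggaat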

How the data were processed

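Libraries were made with a stranded mRNA kit, per the labels' protocols, from crypts released in 2 mM EDTA and passed through a 70 µm strainer. The submitters' processing notes name the genome build mm10 and the tools STAR 2.6.1d, bcl2fastq 2.20, Cuffdiff, Cufflinks and Trimmomatic 0.38, without their order. The authors deposited 1 FPKM value per gene and group, a log2 fold change (PTBP1_KO over WT), and p-values and q-values, per the file headers. Depth behind the FPKM values is unknown. The deposited splicing tables hold reads for 6 libraries, a p-value, an FDR and an inclusion level difference, a score computed by the authors, per the file headers. The headers do not give the order of subtraction, which is taken here as the first minus the second set and was not checked. Because the sets' genotypes are not named, splicing has no direction by genotype here, and 10 columns of inclusion levels were not used.

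No test was added: calls rest on the authors' q-values and FDR. A gene was called at q below 0.05 with the status OK. The median log2 ratio used a pseudocount of 1 FPKM, which understates changes of low genes. Inclusion over all libraries came from summed reads divided by effective lengths. All 36 gene identifiers matched GENCODE M21. Of the 36 members, 17 overlap another annotated gene and 9 a coding one, and whether counting used strand is not given in the sources used here. Members and lists were chosen with earlier results of these data known. Members with an unadjusted p below 0.05, the 3 markers and the first and last of a role in level were named with values, and in other lists called genes and the 3 of smallest p. One result that this rule names is not reported here. Summaries were tested on simulated data. Values were computed in Python 3.11.15 with pandas 2.3.3, numpy 2.4.6 and matplotlib 3.10.9.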

Additional observations from a re-analysis of the deposited data

How the results depend on the processing

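Of the tuft cell genes called at q below 0.05 in the authors' deposited table, 4 were left with at least 1.5-fold, with at least 1 or 5 FPKM in the higher group and among members that overlap no other gene, the last chosen after the data were seen. At q below 0.01 there were 0, since no q by the authors' deposited table lies below 0.0125, and at an unadjusted p below 0.05 there were 19. Among members not shared with leukocytes 1 was called and 13 of 13 tested were lower, and among members that overlap no other gene 17 of 18 were lower, both fewer because fewer genes entered. Centring left 33 lower, and at least 1 FPKM left 29. The median log2 ratio of the members was -0.50 with a pseudocount of 0.1 FPKM, -0.44 after centring, -0.46 with at least 1 FPKM, -0.34 without members shared with leukocytes, -0.41 over all listed members above 0 and -0.49 without overlapping genes. For the other tuft genes it was -0.31, -0.26 and -0.27 under the first 3 of these settings. Member splicing events changed numbered 0 under the 5 alternatives of difference and reads, which could give no other count because the smallest FDR of a member event was 0.0713. Leaving out each replicate, and edgeR or DESeq2 on counts, were not run, since no value per library is tied to a group. No paired analysis was possible because gene levels hold 1 value per group and the labels state no pairing of WT with PTBP1_KO samples.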

Other observations

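The same reads per library (RPM), computed for other lists after the data were seen, show how much these 6 libraries differed in cell types other than tuft cells. The genotypes of the sets are not named, so these values belong to no group. In the first set, 4 Paneth cell markers outside the defensins had 5748 RPM in library 1, 4780 in library 2 and 14860 in library 3 (14859.9 before rounding), and in the second set 3520 (3520.5), 3771 and 7422 in libraries 1, 2 and 3. The library highest in Paneth markers was thus library 3 of the first set. Its sum of tuft cell genes was the lowest, at 388 RPM. Library 1 of the first set, at 394, and library 3 of the second, at 396, were close to it. Library 1 of the second set, highest in tuft cell genes, was lowest in Paneth markers, with library 2 of that set close to it. For 5 markers of T cells and intraepithelial lymphocytes the values were 203, 466 and 427 in the first set and 339, 224 and 90.9 in the second. Enteroendocrine markers (5 genes) ranged only from 1927 to 2504 RPM and epithelial markers (5 genes) from 11749 to 14474. Goblet markers (5 genes) ranged from 4395 to 6800 RPM. Like the tuft cell genes, they were highest in library 1 of the second set, with 6370 in library 3 of that set. Markers of B and plasma cells (5 genes) ranged from 12.2 to 141 RPM and were highest in library 2 of the first set. Of the second list of tuft genes, 16 had a skipped exon event. Their sum was highest in library 1 of the second set, at 877 RPM, with a range of 571 to 688 in the other 5 libraries. What sets these libraries apart was not tested.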
